A study of Mus musculus with 23 samples.

Results

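The Ms4a genes encode membrane-spanning 4-domain subfamily A proteins, and 7 of them were followed here: Ms4a4a, Ms4a4b, Ms4a4c, Ms4a6b, Ms4a6c, Ms4a6d and Ms4a7. The members were taken by symbol from the count table, which held 18876 genes, and all 7 were among the 18759 genes with enough reads to test (at least 5 counts in at least 3 libraries). RNA was sequenced from CD11b+ cells, drawn magnetically from the hippocampi of female mice, in a study of amyloid pathology and of the microglial iron importer gene Slc11a2. Every mouse carried Slc11a2 fl/fl and Cx3cr1-CreERT2+/- on a mixed 129S and C57BL/6J background, and was either hemizygous for the APP/PS1 transgenes or a WT littermate. In the Slc11a2KD groups Cre was activated at an age of 5 to 6 months with a daily oral dose of tamoxifen (4 mg, for 5 days), Control mice were given the corn oil vehicle, and cells were taken at 15 to 18 months.

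The groups were Control WT (n = 6), Control APP/PS1 (n = 6 used of 7), Slc11a2KD WT (n = 5) and Slc11a2KD APP/PS1 (n = 5). Cx3cr1 is also active in macrophages other than microglia, and tamoxifen was given to the knockdown groups only, so that drug and knockdown cannot be told apart. Libraries are named by the number in their label. Control libraries carried numbers 5 to 17, and Slc11a2KD libraries carried numbers 1 to 4 and 18 to 23. The 22 libraries held 31128643 to 54872491 counts (median 41460280). Levels are CPM, the counts of a gene relative to its library's total after scaling by the trimmed mean of M values (TMM). Total Slc11a2 RNA, which does not resolve a deleted exon, was not lower in the knockdown groups (log2 fold change -0.04, adjusted p = 1, in WT and 0.39, adjusted p = 0.205, in APP/PS1, edgeR). Of 10 listed microglial markers 9 were in the table, and their summed level was 32247 to 48418 CPM per library, against 202 to 1113 CPM for 10 markers of border-associated macrophages (the macrophages of the meninges and perivascular spaces).

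MS4A proteins cross the membrane 4 times, and some associate with signalling receptors, as MS4A1 (CD20) does in B cells. In the brain, the Ms4a4 and Ms4a6 genes and Ms4a7 are genes of myeloid cells, and in humans the region that holds MS4A4A and MS4A6A is associated with the risk of Alzheimer's disease and with the level of soluble TREM2. The mouse has several Ms4a4 and Ms4a6 copies where humans have fewer, so single mouse members have no simple human partners. Ms4a7 is widely used to mark border-associated and peripheral macrophages, Ms4a4b was first described in T cells, and Ms4a6d is expressed in macrophages.

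All 7 members lay in one cluster on mouse chromosome 19 (GRCm39), which held 21 annotated Ms4a genes over 678.6 kb, 12 of them in the count table. Within the cluster the members spanned 283.8 kb. In order along the chromosome they were Ms4a7 (chr19:11298403-11313510, minus strand), Ms4a4a (chr19:11352823-11370154, plus), Ms4a4c (chr19:11382131-11404610, plus), Ms4a4b (chr19:11412557-11444419, plus), Ms4a6c (chr19:11446718-11462204, plus), Ms4a6b (chr19:11493876-11508620, plus) and Ms4a6d (chr19:11563968-11582213, minus). The canonical transcript of each had 7 exons. Ms4a4b and Ms4a4c were the closest pair by coding sequence, identical over 91.7% of aligned positions. Ms4a6b was identical to Ms4a6d over 79.8% and to Ms4a6c over 74.0%, or 85.4% where gaps were left out. The remaining pairs ran from 47.9% to 66.8%.

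These likenesses bear on how reads were assigned. For each member the stretches of all its annotated transcripts were pooled. Of the 150-base stretches of Ms4a6c, the length of 1 read, 66.2% also occurred in BE692007, an antisense gene that overlaps it over 14768 bases. The share within the canonical transcript alone was not counted. BE692007 itself held 0 to 35 counts per library. The strand setting of the counting is not given in the sources used here, and without strand the reads of Ms4a6c and BE692007 cannot be told apart, so Ms4a6c is an uncertain member. Ms4a4b shared 0.428% of such stretches with another gene, Ms4a4d, and the other 5 members shared none. At 50 bases Ms4a6c shared 74.0% of its stretches, Ms4a4c 7.44%, Ms4a4b 3.89%, Ms4a6b 3.48% (with Ms4a6c and Ms4a6d among others), Ms4a6d 2.77%, Ms4a7 0.476% and Ms4a4a none. Ms4a4a, Ms4a4c and Ms4a6b also overlap antisense genes (Gm56657, Gm5692 and Gm19261). Ms4a4b overlaps Gm5511, a gene on its own strand, which strand cannot resolve.

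The promoter windows of Ms4a6b and Ms4a6c are shown because these neighbouring copies behaved differently in the measurements given further on. Each window holds 250 bases before and 50 after an annotated start (RefSeq, GRCm38.p6, plus strand, printed 5′ to 3′), at chr19:11518309-11518608 for Ms4a6b and chr19:11469118-11469417 for Ms4a6c. Capitals mark the exact runs of at least 12 bases that align between both windows.
Ms4a6b: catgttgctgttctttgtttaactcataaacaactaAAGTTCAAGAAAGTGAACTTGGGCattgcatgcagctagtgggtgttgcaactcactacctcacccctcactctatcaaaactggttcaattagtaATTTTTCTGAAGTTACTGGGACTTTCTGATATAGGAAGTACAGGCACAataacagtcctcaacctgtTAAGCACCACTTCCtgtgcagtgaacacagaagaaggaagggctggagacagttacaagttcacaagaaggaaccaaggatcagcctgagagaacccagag
Ms4a6c: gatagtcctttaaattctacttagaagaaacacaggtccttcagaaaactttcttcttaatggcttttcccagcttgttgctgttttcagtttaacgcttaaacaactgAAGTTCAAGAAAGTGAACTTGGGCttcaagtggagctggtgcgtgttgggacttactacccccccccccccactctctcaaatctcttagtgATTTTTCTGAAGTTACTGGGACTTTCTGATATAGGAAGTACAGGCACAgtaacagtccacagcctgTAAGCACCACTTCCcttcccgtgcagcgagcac
The capitals form 3 runs, of 24, 48 and 14 bases, or 86 bases in all, in the same order in both windows. Counted from the start site as 0, they begin at -214, -118 and -51 in Ms4a6b and at -141, -49 and 17 in Ms4a6c. Aligned end to end, the windows were identical over 51.2% of positions, or 85.3% with gaps left out. The windows of Ms4a4a (chr19:11375238-11375537) and Ms4a4c (chr19:11407411-11407710), both on the plus strand, are shown as another pair of neighbours whose ratio differed. Capitals mark GAGGAA, the sequence searched here as a binding site of the myeloid factor PU.1. Other sequences that PU.1 may bind were not searched, so windows without GAGGAA may still hold a site for it.
Ms4a4a: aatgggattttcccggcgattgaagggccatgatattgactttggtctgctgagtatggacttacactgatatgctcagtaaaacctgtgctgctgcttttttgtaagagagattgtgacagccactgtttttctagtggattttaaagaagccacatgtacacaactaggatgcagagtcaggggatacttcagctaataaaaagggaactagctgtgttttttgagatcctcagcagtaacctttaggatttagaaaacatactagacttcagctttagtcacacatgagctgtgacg
Ms4a4c: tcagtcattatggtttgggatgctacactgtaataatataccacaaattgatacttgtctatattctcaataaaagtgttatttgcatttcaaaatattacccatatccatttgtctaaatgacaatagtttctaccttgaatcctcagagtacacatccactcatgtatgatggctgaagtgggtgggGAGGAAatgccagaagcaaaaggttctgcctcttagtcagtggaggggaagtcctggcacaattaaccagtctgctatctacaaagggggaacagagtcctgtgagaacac
GAGGAA was searched on both strands and was found in 3 of the 7 windows listed for 6 members, those of Ms4a4c and Ms4a4b and the first of 2 windows of Ms4a7, against 28.3% of all 32851 windows in the table. The AP-1 motif TGANTCA, also searched on both strands, was found in 2 windows, the other window of Ms4a7 and that of Ms4a4b, against 7.81% of all. The interferon-stimulated response element was found in none of the 7 windows and in 3.44% of all. Ms4a6d was not among the promoter entries. These matches describe letters in the windows and no binding was measured.

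Corrected for transcript length, Ms4a6d was the most abundant member and Ms4a4b was close to undetected. In Control WT the level per kb of canonical transcript was 76.3 ± 12.4 CPM per kb (SD, n = 6) for Ms4a6d and 43.5 ± 3.07 for Ms4a6b. Ms4a6c (24.2 ± 5.36), Ms4a7 (21.4 ± 6.62) and Ms4a4a (18.9 ± 7.57) followed and differed from each other by less than their spread. Ms4a4c stood at 5.75 ± 2.7 CPM per kb and Ms4a4b at 0.0998. With the length of all annotated exons in place of the canonical transcript, Ms4a4a (11.1) came before Ms4a6c (9.15) and Ms4a7 (6.42), so the order of these 3 depends on the length used. In Control APP/PS1 Ms4a6d (56.3) still led, and Ms4a6b came after Ms4a6c (23.5), the 2 differing by less than their spread. With all annotated exons this order was turned, at 11.3 for Ms4a6b and 8.89 for Ms4a6c.

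**Figure D1:**
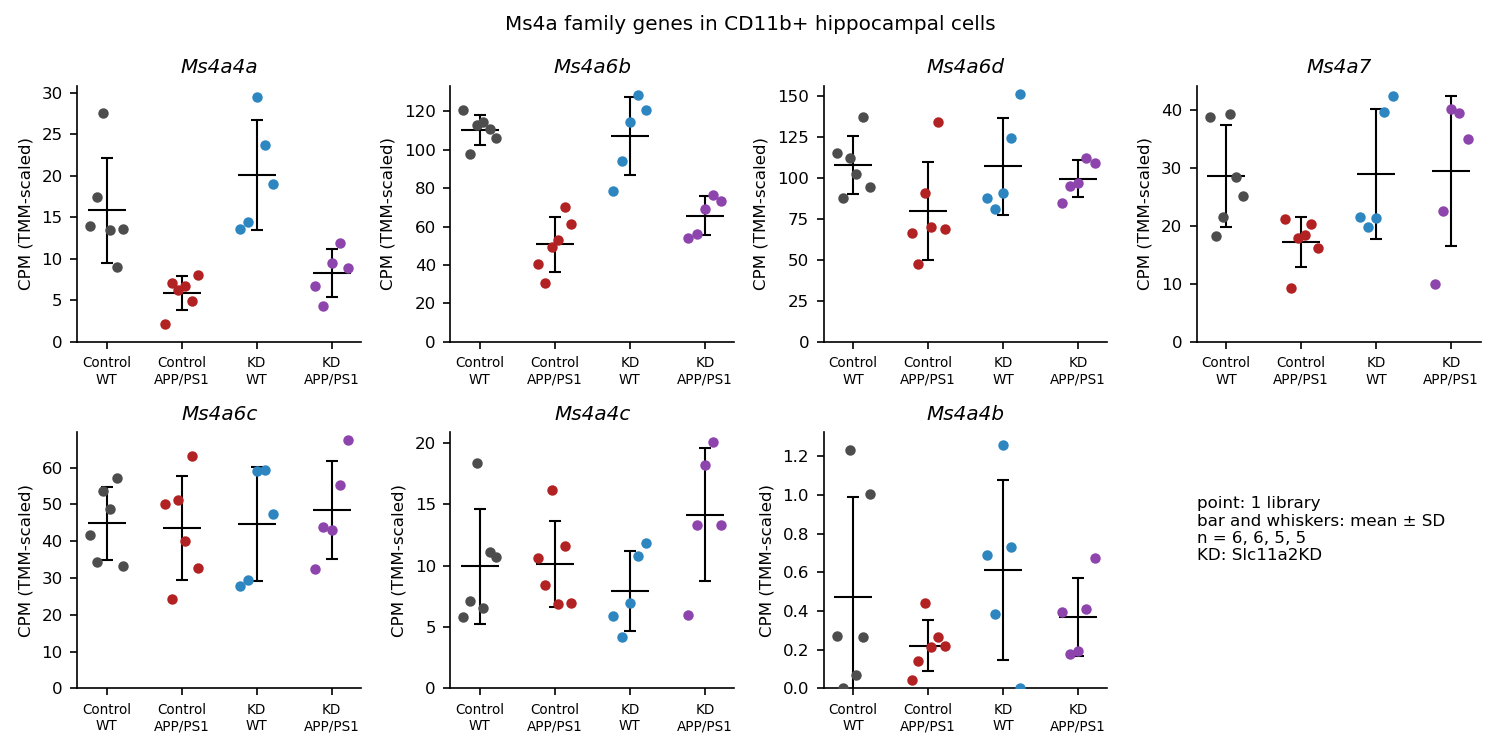
Level of each Ms4a member (vertical axes, TMM-scaled CPM, linear from 0) in each library, by group, with 1 panel per gene, points for libraries and bars for the mean ± SD. Ms4a4a and Ms4a6b are lower in both APP/PS1 groups with no overlap with their WT groups, whereas Ms4a6c lies over the same range in all 4 groups.

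The first comparison asked how amyloid pathology went with the family in mice with intact Slc11a2. Ms4a4a and Ms4a6b were lower in Control APP/PS1 than in Control WT, Ms4a6c and Ms4a4c had nearly equal means, and Ms4a7 and Ms4a6d were lower in value without passing the test. Of the 7 members, 2 were lower and none was higher at an adjusted p under 0.05 (edgeR quasi-likelihood test over all genes, Benjamini-Hochberg), where 4.48% of all tested genes were lower and 5.99% higher. The median log2 fold change of the members was -0.73, against -0.02 over all genes.

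Ms4a6b, an Ms4a6 copy expressed in myeloid cells, had the smallest spread relative to its mean of the members in Control WT. Its level there ran from 97.9 to 120.8 CPM with a median of 111.7, and in Control APP/PS1 from 30.5 to 70.2 CPM with a median of 51.1. Every Control APP/PS1 library was thus below every Control WT library, a separation in this direction that 3.03% of all genes showed. The log2 fold change was -1.12 ± 0.16 (SE; approximate 95% interval -1.44 to -0.81), which left 46.0% of the WT level (edgeR adjusted p = 3.08e-05). A two-sided exact permutation test of log2 CPM gave p = 0.00216, the smallest that 6 against 6 libraries allow. The coefficient of variation was 7.05% in Control WT and 28.0% in Control APP/PS1, a difference that was not tested.

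Ms4a4a, the mouse gene named for the human risk gene MS4A4A, ran from 9.05 to 27.6 CPM in Control WT (median 13.7) and from 2.20 to 8.08 CPM in Control APP/PS1 (median 6.46). The groups did not overlap, although the lowest WT library lay close above the highest APP/PS1 library. This was a log2 fold change of -1.43 ± 0.30 (SE; -2.02 to -0.84), or 37.1% of the WT level (edgeR adjusted p = 0.00237, exact permutation p = 0.00216).

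Ms4a7 ran from 18.2 to 39.3 CPM in Control WT (median 26.8) and from 9.31 to 21.2 CPM in Control APP/PS1 (median 18.2). The ranges overlapped between 18.2 and 21.2 CPM. Its change of -0.73 ± 0.29 on the log2 scale did not pass over all genes (edgeR adjusted p = 0.114, exact permutation p = 0.013). With only these 2 groups in the fit it did pass, at -0.72 with an adjusted p of 0.0288, in a fit that called 18.6% of genes and 7.28% of genes lower.

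Ms4a6d ran from 87.6 to 137.4 CPM in Control WT (median 107.3) and from 47.6 to 134.0 CPM in Control APP/PS1 (median 69.8). Library 16 held the 134.0 CPM, and the other 5 APP/PS1 libraries lay at 91.0 CPM or below. Its difference was -0.44 ± 0.19 on the log2 scale (edgeR adjusted p = 0.155, exact permutation p = 0.0498), and without library 16 it was -0.65 with an adjusted p of 0.0155. Whether Ms4a6d is called lower in Control APP/PS1 therefore rested on 1 library.

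Ms4a6c ran from 33.4 to 57.1 CPM in Control WT (median 45.2) and from 24.3 to 63.2 CPM in Control APP/PS1 (median 44.9). The APP/PS1 range contained the WT range, and the log2 fold change was -0.04 ± 0.23 (-0.50 to 0.41, edgeR adjusted p = 0.951). Ms4a4c, the close copy of Ms4a4b, ran from 5.81 to 18.4 CPM in Control WT (median 8.93) and from 6.90 to 16.2 CPM in Control APP/PS1 (median 9.52), with a log2 fold change of 0.02 ± 0.32 (-0.60 to 0.65, edgeR adjusted p = 0.983). These intervals bound the size of any change in either gene in these libraries, and they are wider for Ms4a4c.

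Ms4a4b was read in very few fragments, from 0 to 48 counts per library. The group sums were 105 counts in Control WT, 59 in Control APP/PS1, 123 in Slc11a2KD WT and 72 in Slc11a2KD APP/PS1. It was at 0 in library 8 of Control WT, where a count of 0 (a limit of 3 counts) allows up to 0.0964 CPM before TMM scaling, and in library 22 of Slc11a2KD WT, where it allows up to 0.0648. Floors of this kind cover counting error only. Its log2 fold change in the Control comparison was -1.09 ± 0.98 (edgeR adjusted p = 0.572). Its coefficient of variation in Control WT was 108.7%.

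The second comparison asked the same of mice with the knockdown, and the same members were lower: 2 of 7, Ms4a4a and Ms4a6b, where 6.41% of all genes were lower and 9.77% higher. No member was called higher. These libraries are not those of the first comparison. Ms4a6b was 78.6, 94.2, 114.6, 128.3 and 120.7 CPM in Slc11a2KD WT and 54.0, 56.1, 69.0, 76.6 and 73.1 CPM in Slc11a2KD APP/PS1. The highest APP/PS1 library lay just under the lowest WT library, a separation that 2.88% of all genes showed in this direction. On the log2 scale the difference was -0.71 ± 0.17 (-1.05 to -0.37), or 61.3% of the WT level (edgeR adjusted p = 0.00727). The exact permutation p was 0.00794, the smallest for 5 against 5.

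Ms4a4a was 13.6, 14.5, 29.5, 23.8 and 18.997 CPM in Slc11a2KD WT and 6.78, 4.26, 9.51, 11.9 and 8.84 CPM in Slc11a2KD APP/PS1. Again all APP/PS1 libraries were below all WT libraries. The log2 fold change was -1.28 ± 0.33 (-1.92 to -0.64), or 41.2% of the WT level (edgeR adjusted p = 0.00933, exact permutation p = 0.00794). Within library numbers 18 to 23 alone it was -1.31 with an adjusted p of 0.125, and without numbers 1 to 4 it was -1.35 with an adjusted p of 0.0761, so the size held and the call did not.

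Ms4a4c stood the other way. It was 5.86, 4.16, 6.92, 10.8 and 11.9 CPM in Slc11a2KD WT and 6.01, 13.3, 18.2, 20.1 and 13.3 CPM in Slc11a2KD APP/PS1. In APP/PS1, 4 of the 5 libraries were above every WT library, and the remaining library, number 4, was among the lowest. On the log2 scale it was 0.84 ± 0.35 higher in APP/PS1 (0.15 to 1.53) which did not pass (edgeR adjusted p = 0.103, exact permutation p = 0.0794). Without library 4 it was 1.03 with an adjusted p of 0.0266, in a fit that called 25.6% of genes in either direction, and without library 22 of Slc11a2KD WT it passed with an adjusted p of 0.0472. Library 4 is the only Slc11a2KD APP/PS1 library among numbers 1 to 4. With a term for numbers 18 to 23 the Ms4a4c value was 0.37 ± 0.32 (edgeR adjusted p = 0.566), and with only those numbers it was 0.51 ± 0.28 (0.480).

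No other member passed the test between the knockdown groups. Log2 fold changes were 0.12 ± 0.25 for Ms4a6c (edgeR adjusted p = 0.812), -0.10 ± 0.21 for Ms4a6d (0.795) and 0.03 ± 0.31 for Ms4a7 (0.974). For Ms4a4b it was -0.73 ± 1.06 (0.706). Slc11a2KD WT held 3 libraries among numbers 1 to 4 and Slc11a2KD APP/PS1 held 1. With a term for numbers 18 to 23 the Ms4a7 value was -0.53 ± 0.26 (edgeR adjusted p = 0.230). Ms4a6d was then at -0.28 ± 0.20 (0.468) and Ms4a6c at -0.11 ± 0.26 (0.865). With only those numbers Ms4a6d was at -0.42 ± 0.17 (0.324) and Ms4a6c at -0.03 ± 0.24 (0.984). In the fit with no term for library number the members' median was -0.10, close to the -0.07 over all genes.

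**Figure D2:**
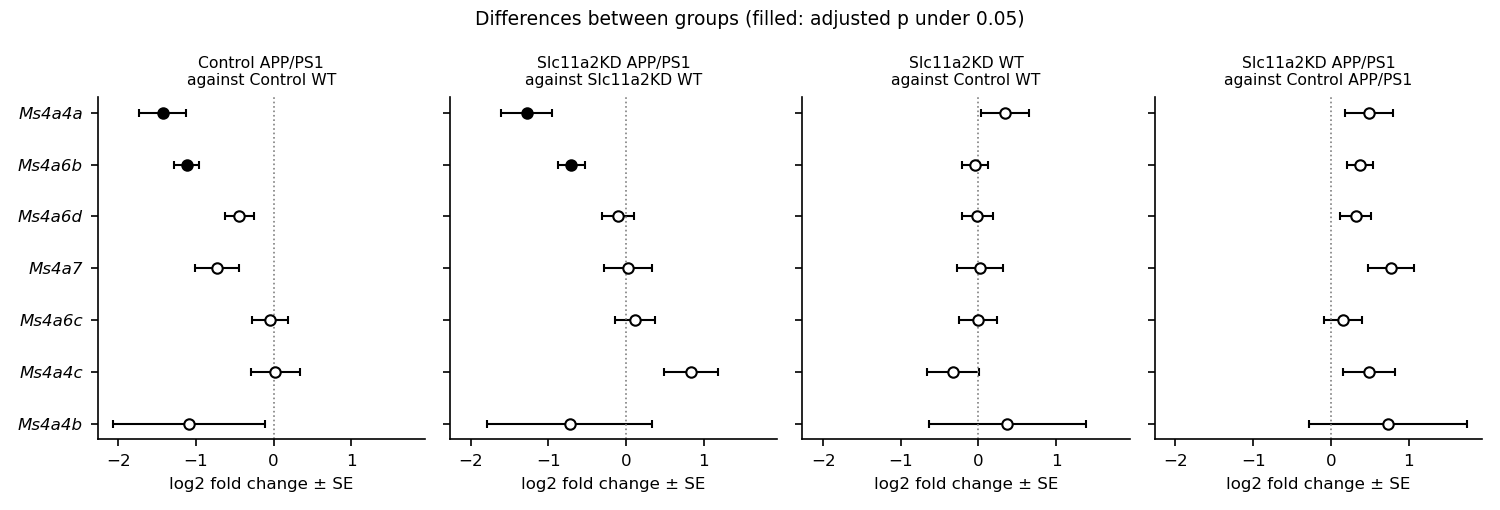
Log2 fold change of each member (vertical axis, edgeR, with bars of 1 SE) in 4 comparisons. Filled points have an adjusted p under 0.05 over all genes. The 4 filled points are Ms4a4a and Ms4a6b in both APP/PS1 against WT comparisons, and no knockdown comparison has one.

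The third comparison set the knockdown groups against their corn oil controls. In WT mice no member was called: the log2 fold changes ran from -0.33 (Ms4a4c) to 0.37 (Ms4a4b), and Ms4a4a was at 0.34 ± 0.31. With a term for library numbers 18 to 23, Ms4a4c was at -0.88 ± 0.30 (edgeR adjusted p = 0.378). Ms4a7 was then at -0.57 ± 0.24 (0.379), and again no member was called. No gene in the table was called by edgeR (0.00% of 18759), 5.92% of genes and none of the members had an unadjusted p under 0.05, and DESeq2 called 6 genes higher and 4 lower.

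In APP/PS1 mice all 7 fitted changes were above 0, as were 50.7% of those over all genes, but with a term for library numbers 18 to 23 those of Ms4a4c (-0.54), Ms4a6c (-0.32), Ms4a6d (-0.092) and Ms4a7 (-0.37) were below 0. Again no member and no gene was called by edgeR (0.00%). At an unadjusted p under 0.05 stood 20.6% of genes and 2 members, Ms4a7 and Ms4a6b, and DESeq2 called 449 genes higher and 131 lower. Ms4a7 was 21.2, 9.31, 17.9, 18.5, 20.4 and 16.3 CPM in Control APP/PS1 and 10.1, 22.7, 40.2, 39.5 and 35.0 CPM in Slc11a2KD APP/PS1. Of the knockdown libraries 4 exceeded every control library, and library 4 was below all control libraries but number 7. The log2 fold change of Ms4a7 was 0.77 ± 0.30 (0.18 to 1.36, edgeR adjusted p = 0.205, exact permutation p = 0.102). Without library 4 it was 0.99 ± 0.26 with an adjusted p of 0.0211, in a fit that called 7.34% of genes higher and 16.4% in either direction. That fit sets only numbers 18 to 23 against control numbers 5 to 17. With the library-number term over all libraries the Ms4a7 difference was -0.37 ± 0.31. The term treats numbers 1 to 4 and 5 to 17 as 1 set. This value therefore leans on library 4, the only Slc11a2KD APP/PS1 library in that set. Of the 10 border-associated macrophage markers none was called in this comparison, 8 had values above 0 (median log2 fold change 0.30) and 4 had an unadjusted p under 0.05. These 4 were Pf4 (1.21 ± 0.29), Clec10a (1.05 ± 0.27), Folr2 (0.91 ± 0.32) and Cbr2 (0.90 ± 0.26), each with an edgeR adjusted p of 0.205, while Mrc1 was at 0.06, Cd163 at -0.09 and Stab1 at -0.18. The summed level of the 10 markers was 202 to 430 CPM in Control APP/PS1 and 236 to 467 CPM in Slc11a2KD APP/PS1, so the groups overlapped, and their part in the Ms4a7 difference was not tested.

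Ms4a6b was 0.37 ± 0.17 higher on the log2 scale in Slc11a2KD APP/PS1 (0.05 to 0.70, edgeR adjusted p = 0.219). The other fitted changes were 0.49 ± 0.31 for Ms4a4a (0.371), 0.49 ± 0.33 for Ms4a4c (0.417), 0.32 ± 0.20 for Ms4a6d (0.365), 0.15 ± 0.24 for Ms4a6c (0.788) and 0.74 for Ms4a4b. Whether the effect of APP/PS1 differed with knockdown was tested as an interaction, which no member passed. All 7 interaction values were above 0, as were 49.7% of those over all genes, but not in every fit: Ms4a6c was at -0.067 with the library-number term, Ms4a6c at -0.027 and Ms4a6d at -0.013 without libraries 1 to 4, and Ms4a4b at -0.29 with library 10 kept. The largest were 0.82 ± 0.47 for Ms4a4c (edgeR adjusted p = 0.549), 0.75 ± 0.43 for Ms4a7 (0.547) and 0.41 ± 0.23 for Ms4a6b (0.547). The interaction called 0.00% of genes, 9.08% of genes and none of the members had an unadjusted p under 0.05, and DESeq2 called 18 genes higher and 7 lower.

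Library number moved with several members inside the knockdown groups. In Slc11a2KD WT, Ms4a7 was 19.7 to 21.5 CPM in libraries 1 to 3 and 39.7 to 42.5 CPM in libraries 19 and 22. In Slc11a2KD APP/PS1 it was 10.1 CPM in library 4 and 22.7 to 40.2 CPM in libraries 18, 20, 21 and 23. Ms4a4c showed the same order, with 4.16 to 6.92 CPM against 10.8 to 11.9 CPM in Slc11a2KD WT and 6.01 CPM against 13.3 to 20.1 CPM in Slc11a2KD APP/PS1. Ms4a6b and Ms4a6d had the same order without overlap.

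Ms4a6b was 78.6 to 114.6 CPM against 120.7 to 128.3 CPM in Slc11a2KD WT, and 54.0 CPM against 56.1 to 76.6 CPM in Slc11a2KD APP/PS1. Ms4a6d was 81.3 to 90.8 CPM against 124.5 to 151.1 CPM in Slc11a2KD WT, and 84.5 CPM against 94.9 to 112.5 CPM in Slc11a2KD APP/PS1. Slc11a2KD APP/PS1 had a single library among numbers 1 to 4, so its separation rests on that library.

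A term for library numbers 18 to 23, added to the edgeR fit, was called for Ms4a7 and Ms4a4c. It was 1.28 ± 0.27 on the log2 scale for Ms4a7 (adjusted p = 0.00143) and 1.17 ± 0.33 for Ms4a4c (adjusted p = 0.0112), where 11.3% of all genes were higher and 24.0% were called in either direction. For Ms4a6d the term was 0.51 (adjusted p = 0.0707), for Ms4a6c 0.56 (0.140), for Ms4a6b 0.37 (0.143) and for Ms4a4a 0.23 (0.713). With this term the difference of Slc11a2KD APP/PS1 from Control APP/PS1 became -0.37 for Ms4a7 and -0.54 for Ms4a4c. No control library carries such a number, so library number and knockdown cannot be fully told apart. The labels do not say what the numbers stand for.

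Markers of choroid plexus epithelium, cells that secrete cerebrospinal fluid, also moved with library number. The summed level of 10 such markers was 2.30 to 51.8 CPM in libraries 1 to 4 and 89.8 to 791 CPM in libraries 18 to 23. By group the sum was 1.09 to 1963 CPM in Control WT, 0.991 to 5.41 CPM in Control APP/PS1, 10.6 to 791 CPM in Slc11a2KD WT and 2.30 to 490.4 CPM in Slc11a2KD APP/PS1. Ttr, the defining transthyretin gene, was at 0 in 4 Control WT and 3 Control APP/PS1 libraries. In the Control comparison 9 of the 10 markers were lower, as were 4.48% of all genes. Libraries 12 and 15 of Control WT summed to 1963 and 1012 CPM and the other 4 to at most 5.34 CPM. In Slc11a2KD APP/PS1 against Control APP/PS1 all 10 were above 0 with an unadjusted p under 0.05 (median log2 fold change 8.23), although none was called by edgeR over all genes, as no gene was. Over all genes 50.7% were above 0 and 20.6% had an unadjusted p under 0.05 (edgeR). The part of choroid plexus RNA in the Ms4a7 and Ms4a4c values was not tested. Without libraries 12 and 15 the log2 fold change in Control APP/PS1 was -1.53 for Ms4a4a (edgeR adjusted p = 0.00552) and -1.12 for Ms4a6b (0.000331).

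**Figure D3:**
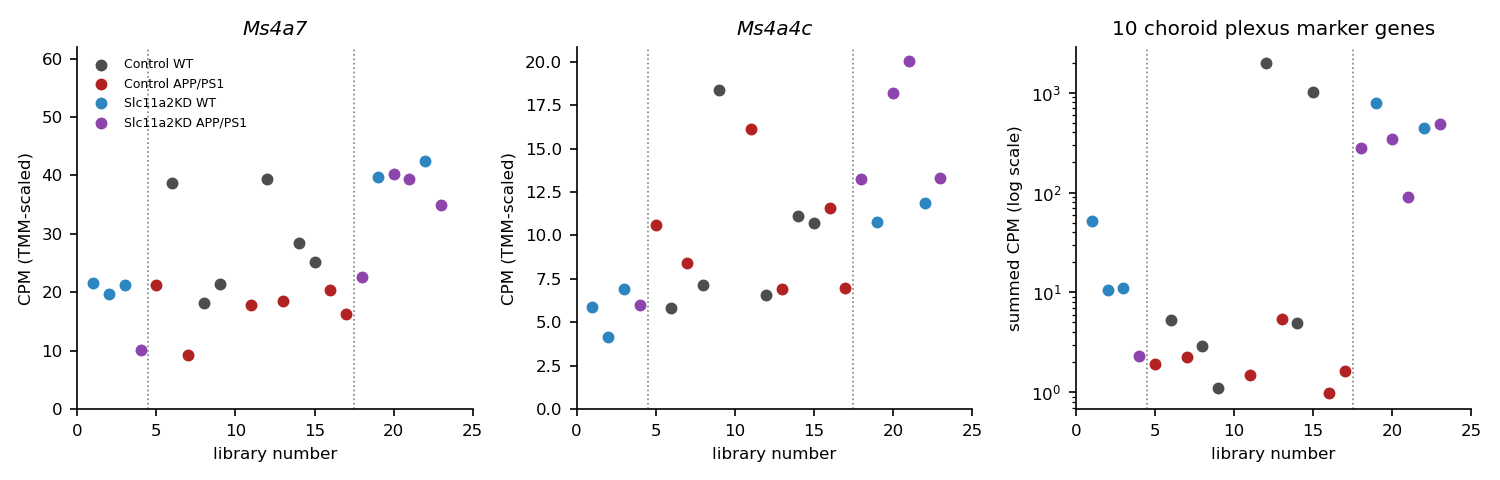
Ms4a7, Ms4a4c and the sum of 10 choroid plexus markers (vertical axes, CPM, on a log scale for the sum) against library number (horizontal axis), coloured by group, with dotted lines between numbers 4 and 5 and between 17 and 18. In the knockdown groups Ms4a7 and Ms4a4c are higher in libraries 18 to 23 than in libraries 1 to 4.

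The ratio of 2 neighbouring members inside 1 library does not depend on that library's scaling, so 5 neighbouring pairs were compared between APP/PS1 and WT in both arms. Ms4a4b was left out, and the pairs were chosen after the levels had been seen. The ratios therefore restate differences in level given above and are not separate evidence for them. How many other gene pairs split in the same way was not counted. The 10 two-sided exact permutation tests were adjusted together by Benjamini-Hochberg. Ms4a6c over Ms4a6b gave the plainest split.

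In Control WT the ratio of Ms4a6c to Ms4a6b had a geometric mean of 0.398 (0.314 to 0.516), and in Control APP/PS1 0.846 (0.533 to 1.23). The groups did not overlap, and the log2 difference was 1.09 (exact permutation p = 0.00216, adjusted p = 0.0159), between 0.98 and 1.22 with any 1 library left out. In the knockdown groups it was 0.400 (0.311 to 0.515) in WT and 0.721 (0.601 to 0.922) in APP/PS1, again without overlap, a log2 difference of 0.85 (exact permutation p = 0.00794, adjusted p = 0.0159). The 2 genes with the shared promoter runs printed above thus differed in their proportion to each other, with the caution that most of the sequence of Ms4a6c also lies in BE692007.

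Ms4a6b over Ms4a6d went from 1.03 to 0.648 in the Control arm (log2 difference -0.67, exact permutation p = 0.00433) and from 1.01 to 0.656 in the knockdown arm (-0.63, exact permutation p = 0.00794), both with an adjusted p of 0.0159. The knockdown groups did not overlap and the Control groups did. Ms4a4a over Ms4a4c went from 1.63 to 0.564 in the Control arm (-1.53, exact permutation p = 0.0108, adjusted p = 0.018) and from 2.61 to 0.595 in the knockdown arm (-2.13, exact permutation p = 0.00794, adjusted p = 0.0159). Only in the knockdown arm were the groups of this pair apart.

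Ms4a7 over Ms4a4a rose in the knockdown arm from 1.42 to 3.37 (exact permutation p = 0.0317, adjusted p = 0.0453), and in the Control arm its values of 1.84 and 3.07 did not differ beyond their spread (exact permutation p = 0.199). The exact tests take no account of library number. Within libraries 18 to 23, Ms4a7 over Ms4a4a was 1.67 to 2.24 in Slc11a2KD WT and 3.32 to 5.31 in Slc11a2KD APP/PS1, but library 4 at 1.48 lay within the 0.723 to 1.59 of libraries 1 to 3. The ratios of Ms4a6c to Ms4a6b, Ms4a6b to Ms4a6d and Ms4a4a to Ms4a4c did not overlap between the knockdown groups within either set of numbers. Ms4a4c over Ms4a6c passed in neither arm, with an exact permutation p of 0.608 in the Control arm and 0.0635 in the knockdown arm.

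**Figure D4:**
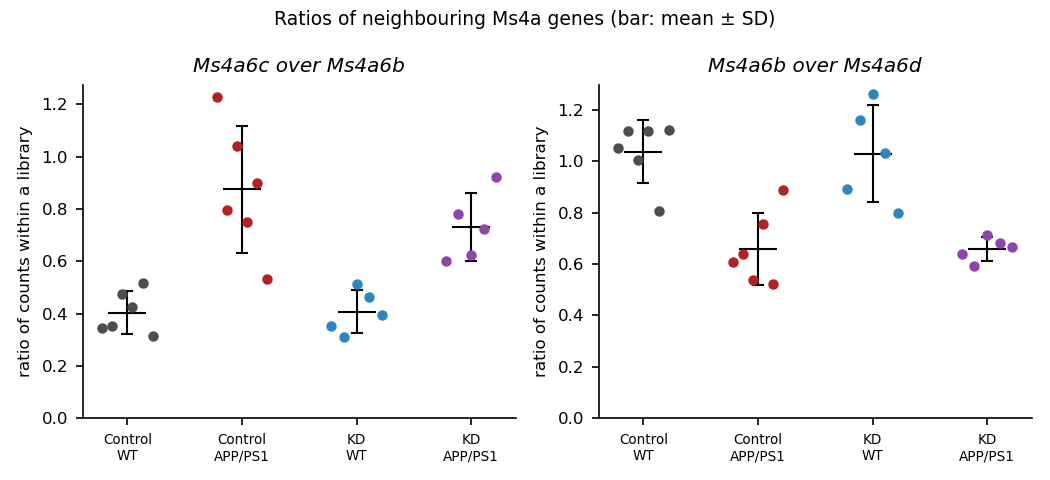
Ratio of the CPM of Ms4a6c to Ms4a6b and of Ms4a6b to Ms4a6d within each library (vertical axes), by group, with points for libraries and bars for the mean ± SD. The Ms4a6c to Ms4a6b ratio is 0.311 to 0.516 over both WT groups and 0.533 to 1.23 over both APP/PS1 groups.

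Some libraries stood low or high across several members. In Control APP/PS1, library 7 was the lowest of its group in 4 of the 7 members (Ms4a6b, Ms4a6c, Ms4a6d and Ms4a7) and library 16 the highest in 3. In Control WT, library 8 was the lowest in 4 and library 9 the highest in 3, among them Ms4a4a with 27.6 CPM and Ms4a4c with 18.4 CPM. In Slc11a2KD APP/PS1, library 4 was the lowest in 5 and library 21 the highest in 4.

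Border-associated macrophage markers fell with APP/PS1 beside Ms4a4a and Ms4a6b. Of 10 such markers 8 were lower in Control APP/PS1 (median log2 fold change -1.32; 4.48% of all genes were lower) and 5 in Slc11a2KD APP/PS1 (median -1.02; 6.41% of all genes), and none was higher. Their sum was 469 to 981 CPM in Control WT and 202 to 430 CPM in Control APP/PS1, with 501 to 1113 CPM in Slc11a2KD WT and 236 to 467 CPM in Slc11a2KD APP/PS1, so neither pair of groups overlapped. Mrc1, the mannose receptor, had group means of 99.5, 33.6, 112.4 and 35.0 CPM in the same order, and Cd163, a scavenger receptor, 43.4, 16.6, 52.6 and 15.5 CPM. Lyve1 was the only one of these markers at 0, in 1 library each of Control WT and Slc11a2KD APP/PS1. Their part in the Ms4a4a and Ms4a6b differences was not tested, and in bulk RNA fewer cells of a type and less RNA per cell cannot be told apart.

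Microglial markers were lower as well: 4 of the 9 in the table in Control APP/PS1 and 6 in Slc11a2KD APP/PS1. Their sums were 40894 to 47791 CPM in Control WT, 32247 to 37244 in Control APP/PS1, 42269 to 48418 in Slc11a2KD WT and 34962 to 39734 in Slc11a2KD APP/PS1. Tmem119 had group means of 4613, 2177, 4531 and 2400 CPM, and P2ry12, a purinergic receptor of resting microglia, 5351, 2709, 5490 and 2695 CPM. Of the 10 monocyte markers 2 were lower in Control APP/PS1 (median log2 fold change -1.35) and 1 in Slc11a2KD APP/PS1 (median -0.95), and of the 8 neutrophil markers 4 (median -1.56) and 2 (median -1.39). Over all genes 4.48% and 6.41% were called lower in these comparisons.

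**Figure D5:**
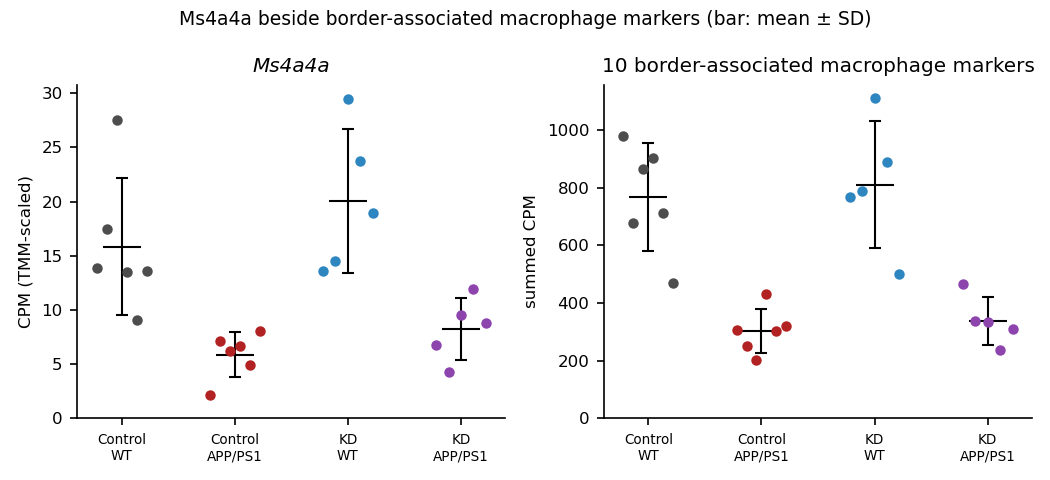
Ms4a4a and the sum of 10 border-associated macrophage markers (vertical axes, CPM) in each library, by group, with bars for the mean ± SD. Both are lower in the APP/PS1 groups than in the matching WT groups without overlap.

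The rest of the family and its relatives gave a contrast. The 5 other Ms4a genes in the table, Ms4a1, Ms4a2, Ms4a3, Ms4a8a and Ms4a14, had group means of at most 1.80 CPM, and none was called in the 4 comparisons. Tmem176a and Tmem176b, genes of the related 4-transmembrane family expressed in myeloid cells, were higher in APP/PS1. The log2 fold change of Tmem176b was 0.71 ± 0.14 in the Control arm (edgeR adjusted p = 0.00108) and 0.71 ± 0.15 in the knockdown arm (0.00235), and that of Tmem176a was 0.73 ± 0.17 (0.00586) and 0.78 ± 0.19 (0.0062).

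Because human MS4A variation goes with soluble TREM2, a list of 20 genes of TREM2 signalling, shedding and response was read beside the members. In Control APP/PS1 10 were higher and 2 lower, where 5.99% and 4.48% of all genes were called, and in Slc11a2KD APP/PS1 11 were higher and 3 lower, where 9.77% and 6.41% of all genes were. Trem2 itself, the receptor, rose by 0.52 ± 0.10 on the log2 scale in the Control arm (edgeR adjusted p = 0.00141) and by 0.83 ± 0.11 in the knockdown arm (2.22e-05), from 1445 to 2070 CPM and from 1337 to 2377 CPM. Its adaptor Tyrobp gave 0.33 (0.122) and 0.57 (0.00999). Adam10, a sheddase of TREM2, gave -0.32 (0.225) and -0.64 ± 0.17 (0.0135), and the related sheddase Adam17 gave 0.08 (0.861) and -0.45 (0.14). Spi1, which encodes PU.1, gave -0.15 (0.24) and -0.10 (0.455).

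The genes whose pattern over the 22 libraries was most like that of a member were found among 11888 genes by the root mean square difference of centred log2 CPM. For Ms4a4a the nearest was Gm56663 (0.369), a non-coding gene on the same strand that starts 48 bases downstream (chr19:11370203-11370687, GRCm39), followed by the C-type lectins Clec4a1 (0.404) and Cd209b (0.456). Gm56663 held 200 to 408 counts per library in Control WT, 69 to 168 in Control APP/PS1, 283 to 442 in Slc11a2KD WT and 111 to 199 in Slc11a2KD APP/PS1, in the same order as Ms4a4a.

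For Ms4a6b the nearest genes were the C-type lectin Clec4a3 (0.166), Lrba (0.219) and Lpcat2 (0.223), where Ms4a6b's own root mean square deviation was 0.564. For Ms4a6d they were Ntpcr (0.176), Nipa2 (0.221) and the complement gene C1qa (0.235), for Ms4a7 they were Tmem37 (0.331), Alox5ap (0.348) and Susd3 (0.365), for Ms4a6c Decr2 (0.297), Slc8b1 (0.315) and Slc39a13 (0.317), and for Ms4a4c Guk1 (0.344), E2f2 (0.384) and Mrps18c (0.387). For Ms4a4b the nearest was at 0.956, beside its own deviation of 1.32, so no gene resembled its sparse counts closely. The own deviation of Ms4a6c was 0.409, so its nearest genes were not close to it either. Own deviations were 0.378 for Ms4a6d, 0.606 for Ms4a7 and 0.610 for Ms4a4c. The libraries share group and library number, so these distances are descriptions.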

How the data were processed

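Bulk RNA was sequenced as paired-end 150-base poly(A) libraries. The authors trimmed reads with Trim Galore 0.6.7, aligned them to mm39 and counted reads per gene with STAR, and deposited raw counts for 18876 genes in 23 samples. The deposited normalized table was not used. A single Control APP/PS1 library (number 10), which the authors removed as an outlier, was left out, so 22 entered the fit. A gene was tested if 3 or more libraries held 5 or more counts of it, and a single fit covered the 4 groups, by edgeR 4.0.16 (TMM, quasi-likelihood, Benjamini-Hochberg, adjusted p under 0.05, R 4.3.3), two-sided. Intervals are 1.96 SE wide on each side. DESeq2 1.42.0, other filters and scalings, other sample sets and leaving out each library were alternatives. P-values measure the spread between these libraries. On simulated counts for the Control comparison (17806 genes), 157 of 200 genes changed by 1.5 on the log2 scale were recovered, with 4 false calls. The simulation held no shift with library number and changed only well-counted genes, so these figures need not hold for the real counts. Named genes were the members, the marker and TREM2 lists, and the 3 genes nearest to each member. The members and lists were chosen with earlier results of these data known.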

Additional observations from a re-analysis of the deposited data

Results flagged for a closer look

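The Control APP/PS1 library that the comparisons leave out (number 10) held the highest level of 2 members among all 23 libraries, scaled together. Ms4a4c was at 42.7 CPM there and at most 19.9 CPM elsewhere, and Ms4a6d was at 152.0 CPM and at most 149.7 CPM elsewhere. Both are listed because the highest value lay in a library outside the comparisons, by a wide margin for Ms4a4c and a narrow margin for Ms4a6d. Ms4a6b was at 93.0 CPM in library 10. The other Control APP/PS1 libraries held at most 69.6 CPM of it and Control WT at least 97.0 CPM. Ms4a4a, at 6.80 CPM in library 10, lay within the range of the other Control APP/PS1 libraries. Within the 28 combinations of a member and a group, 0 held a library set apart from its group by Dixon's test.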

How the results depend on the processing

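Ms4a4a and Ms4a6b were called lower in Control APP/PS1 in all 20 other fits that gave a value, at -1.55 to -1.20 and -1.24 to -0.96. In Slc11a2KD APP/PS1 against Slc11a2KD WT, Ms4a6b was called in 20 of 20 fits (-0.89 to -0.63) and Ms4a4a in 18 of 20 (-1.46 to -1.10). None of these 4 values changed sign, whereas 20 of the 31 values that were not called did so in at least 1 fit. Causes were not tested. No paired analysis was possible because each replicate number is a library number that is used once. Ms4a4b has the fewest counts. The sample set without libraries 1 to 4 was chosen after seeing the data.

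Values below are log2 fold changes or genes called. With a log2 change above 1 also required, Control APP/PS1 against WT had 526 genes higher and 392 lower, and Slc11a2KD APP/PS1 against WT 733 and 372. DESeq2 gave 1306 genes lower in Control APP/PS1, 6 higher and 4 lower in Slc11a2KD WT against Control WT, 449 and 131 in Slc11a2KD APP/PS1 against Control APP/PS1, and 18 and 7 for the interaction. In Control APP/PS1 against WT, Ms4a4c became -0.011 with DESeq2, -0.011 with its size factors in edgeR, -0.019 with at least 10 counts in every sample and -0.070 without libraries 12 and 15, where 497 genes were lower. With only the compared groups, 1974 and 1267 genes were called in Control APP/PS1 and Ms4a7 was -0.72 (edgeR adjusted p = 0.0288), and 738 and 303 in the knockdown arm. With library 10 kept, Ms4a6c was 0.042 in Control APP/PS1, Ms4a4c was -0.064 in Slc11a2KD APP/PS1 against Control APP/PS1, and the Ms4a4b interaction was -0.29.

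With a term for libraries 18 to 23, the knockdown arm had 1121 genes higher and 652 lower, with Ms4a6c at -0.11 and Ms4a7 at -0.53. Ms4a7 was -0.57 in Slc11a2KD WT against Control WT. Slc11a2KD APP/PS1 against Control APP/PS1 gave Ms4a4c -0.54, Ms4a6c -0.32, Ms4a6d -0.092 and Ms4a7 -0.37, and the Ms4a6c interaction was -0.067. With only libraries 18 to 23, the knockdown arm had 263 and 64 genes, with Ms4a4a at -1.31 (edgeR adjusted p = 0.125), Ms4a4b 0.005, Ms4a6c -0.030 and Ms4a7 -0.27.

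Without libraries 1 to 4, the knockdown arm had 478 and 383 genes, with Ms4a4a at -1.35 (edgeR adjusted p = 0.0761), Ms4a6c -0.063 and Ms4a7 -0.29. Slc11a2KD WT against Control WT then had 3 genes higher and 16 lower, with Ms4a4b at -0.34, Ms4a4c 0.20, Ms4a6b 0.18, Ms4a6c 0.26 and Ms4a6d 0.35. Slc11a2KD APP/PS1 against Control APP/PS1 had 1691 and 2329 genes, with Ms4a7 at 0.96 (edgeR adjusted p = 0.00714). The interaction called 1 gene higher, with Ms4a6c at -0.027 and Ms4a6d at -0.013.

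With 1 library left out, Control APP/PS1 against WT gave Ms4a4c -0.17 to 0.29, Ms4a6c -0.18 to 0.081 and Ms4a6d -0.65 to -0.33. Slc11a2KD APP/PS1 against WT had 728 to 2352 genes lower, with Ms4a4c at 0.67 to 1.03, Ms4a6c -0.027 to 0.24, Ms4a6d -0.19 to 0.051 and Ms4a7 -0.11 to 0.25. Slc11a2KD WT against Control WT had 0 to 1 genes higher and 0 to 1 lower, with Ms4a4b at -0.069 to 0.92, Ms4a6b -0.13 to 0.051, Ms4a6c -0.15 to 0.12, Ms4a6d -0.18 to 0.070 and Ms4a7 -0.18 to 0.13. Slc11a2KD APP/PS1 against Control APP/PS1 had 0 to 1373 genes higher and 0 to 1696 lower, both highest without library 4, with Ms4a6c at -0.001 to 0.29 and Ms4a7 0.63 to 0.99. The interaction had 0 to 1 genes higher, with Ms4a4a at -0.081 to 0.33 and Ms4a4b -0.19 to 0.81.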
